A study of Saccharomyces cerevisiae with 9 samples.

Results

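The transcripts described here are those of 43 genes of Saccharomyces cerevisiae for the initiation, elongation and termination factors of cytosolic protein synthesis and for the Gcn2 pathway that restrains initiation. They were listed by gene name, a rule that uses no measured value, though the list was drawn up with earlier results of these data known, and the array annotation assigned 50 of the 9275 tested probe sets to them. Every gene had a probe set. TEF1 and TEF2, EFT1 and EFT2, and TIF1 and TIF2 are near-identical copies that share 1 probe set a pair, so their signals cannot be separated and are given as 1 value. Each gene was represented by its brightest probe set, which left 40 probe sets for 43 genes, and all 40 lay above background in at least 1 group.

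RNA was measured on 9 one-colour Affymetrix Yeast S98 arrays in 3 groups of 3. The strain BY4743, a diploid derived from S288C, lacks URA3, LEU2 and HIS3 function on both chromosome sets and is heterozygous for deletions at LYS2 and MET15 (MET17). Control BY4743 was grown in rich glucose medium at 30 °C to an A600 of 0.8 and put into diluted medium. Dried BY4743 came from that suspension after drying for 42 h and a hold at 20% relative humidity for 72 h, and the remaining group was commercial dry active yeast. No undried cells held as long as the dried ones were part of the comparison, so drying and elapsed time cannot be told apart. The sources used here do not give the strain, culture or drying of the commercial yeast, so in its comparisons these cannot be told apart. The 3 arrays of a group were not described as separate cultures, and the p-values thus reflect only array-to-array spread, which may be technical.

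Initiation begins when eIF2 carries the initiator tRNA to the small ribosomal subunit, together with eIF1, eIF1A, eIF3 and eIF5. The cap-binding complex eIF4F brings in the messenger, the start codon is selected, and eIF5B joins the subunits. Elongation factor eEF1A delivers aminoacyl-tRNAs, eEF2 moves the ribosome along, and fungi also need the ATPase eEF3. Growing yeast makes these factors in large amounts, and their messengers are known to fall with those of ribosomal proteins when growth stops.

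Most factor transcripts were lower in dried than in control BY4743. Of 40 probe sets 36 differed, against 69.2% of all tested probe sets. Lower were 33, which is 82.5% of the 40 against 33% of all tested probe sets, and 3 were higher, against 36.2% (limma on quantile-normalized log2 signals, Benjamini-Hochberg adjusted p under 0.05 over all 9275 probe sets). The median log2 change of the 40 was -1.68, beside 0.04 for all probe sets. A fall of at least 2-fold was called for 29 members, where 21.9% of all probe sets had one, and a rise of that size for HEF3 and GCN2, where 21.8% had one. The 3 dried arrays did not overlap the 3 control arrays in 38 members, against 74.6% of all probe sets. In commercial yeast against dried BY4743, 27 members differed, against 66.5% of all probe sets. Of these 21 were higher and 6 lower, against 33.1% and 33.5% of all probe sets, with a median of 0.54 beside 0.0, and 31 did not overlap, against 72.8%. At least 2-fold higher were 12, against 19.3%, and 1 was at least 2-fold lower, against 18.9%. The latter was TIF4632, which lay at or under background on 2 commercial arrays. Set against control BY4743, commercial yeast differed in 32 members, against 72.5% of all probe sets. It had 30 members lower and 2 higher, against 37% and 35.5%, with a median of -0.94 beside -0.01. The 2 were HEF3 and EFB1, and the other probe set of EFB1 gave no call. At least 2-fold lower were 18, against 24.1%, and HEF3 was at least 2-fold higher, against 22.6%. The groups did not overlap in 34 members, against 75.5%. The 3 comparisons share arrays, so their counts are not independent of each other. In RNA pooled from many cells, fewer cells that carry a transcript and less transcript per cell cannot be told apart.

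Quantile normalization sets every change against the middle of all transcripts. When the spike-in controls set the scale instead, the median of all probe sets was -0.29 in dried against control BY4743, -1.10 in commercial yeast against dried BY4743 and -1.43 in commercial yeast against control BY4743. Under that scaling 33, 19 and 39 members were lower and 1 member was higher in each of these comparisons. No share of all probe sets called under that scaling stands beside these counts. As the medians of all probe sets moved down too, the counts are not a result about the members. The spike-in controls were 9 probe sets of BioB, BioC, BioDn and CreX. Their mean log2 deposited signal was 8.04 to 8.62 on control, 8.25 to 9.20 on dried and 9.997 to 10.008 on commercial arrays. Whether they follow RNA per cell was not tested, so this scaling does not measure transcript amounts per cell. With quantile normalization, 35 of 40 members lay below the median of all probe sets in dried against control BY4743. In commercial yeast against dried BY4743, 27 lay above it. Spike-in scaling moves all probe sets of an array by the same amount. It leaves these positions as in the deposited values, where the counts were 35 and 25, and cannot test them. Rises from dried BY4743 to commercial yeast are rises relative to the other transcripts. RNA quality moved with the groups as well. The log2 difference between the 3′ and the 5′ control probe set of actin, ACT1, was -0.71 to -0.19 on control arrays, 1.20 to 1.52 on dried arrays and 0.35 to 0.53 on commercial arrays, and its part in the results was not tested. The controls differed in order: for SPT15 this difference was 1.23 to 1.41, 1.53 to 1.74 and 1.86 to 2.06 on control, dried and commercial arrays, and for SRB4 it was 0.89 to 1.38, 1.38 to 1.53 and 2.32 to 3.08, so both were highest on the commercial arrays.

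**Figure D1:**
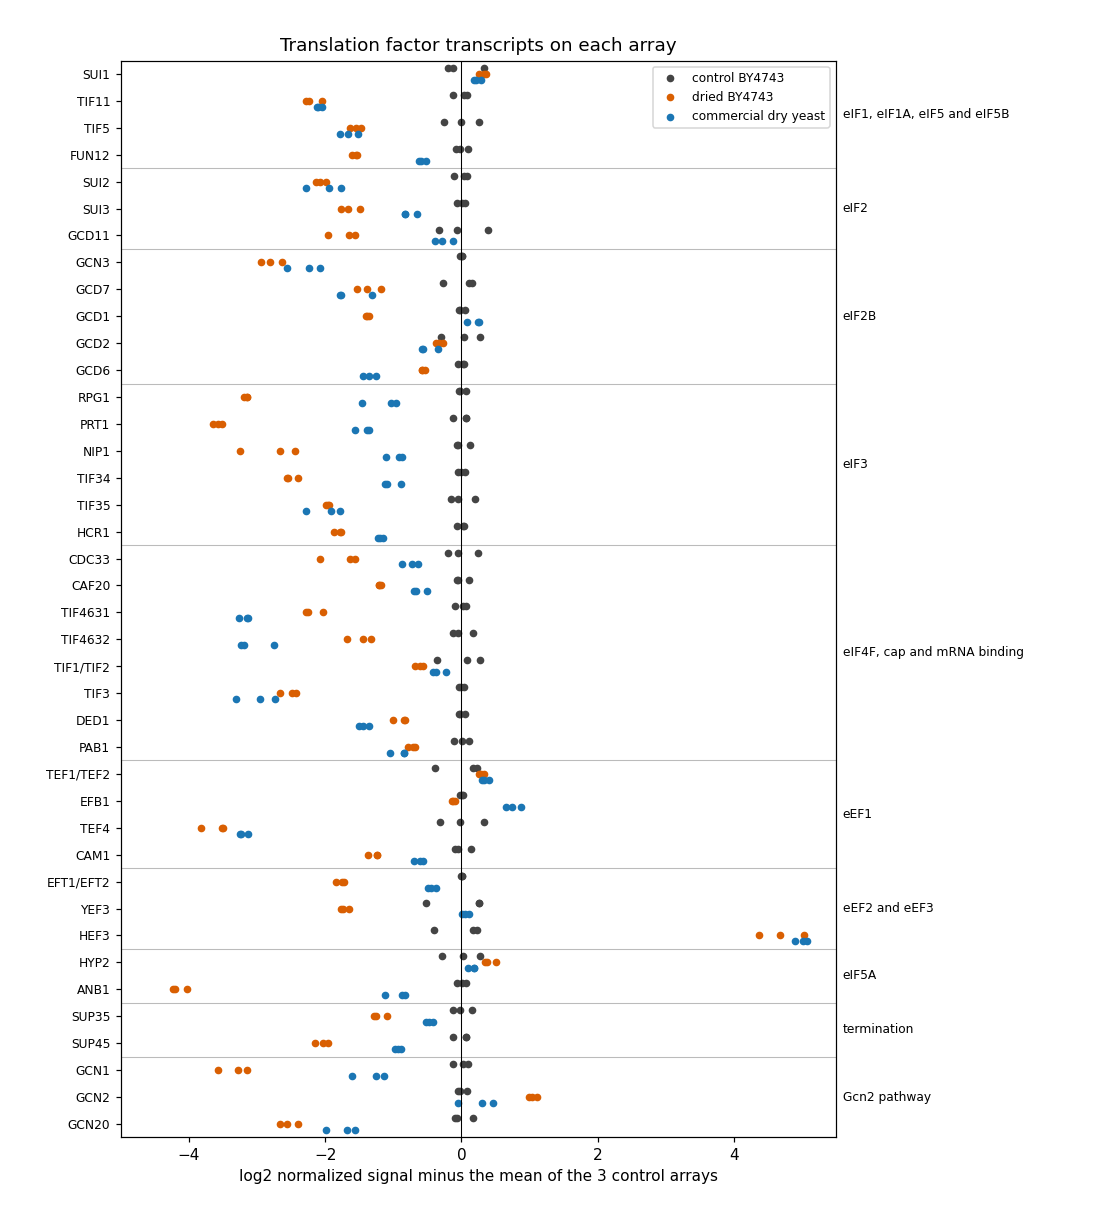
Each point is 1 array, and the x axis is the log2 normalized signal of a factor's representative probe set minus the mean of its 3 control arrays; rows are grouped by the factor's role. Most dried and commercial points lie left of 0, HEF3 lies to the right in both, and ANB1 is lowest on the dried arrays.

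Of the genes for eIF1, eIF1A, eIF5 and eIF5B, all but SUI1 fell in dried BY4743, where 33% of all probe sets were lower. Below, values per array are normalized signals, and changes are log2 differences between group means with their SE and limma's adjusted p. SUI1, which encodes eIF1, the guard against wrong start codons, read 1953, 1354 and 1432 on the control arrays, 1861, 1993 and 1960.3 on the dried arrays and 1897, 1775 and 1811 on the commercial arrays. Its groups overlapped in all 3 comparisons, and the change from control to dried BY4743 was 0.31 (SE 0.14, adjusted p = 0.0732). TIF11, for eIF1A, the partner of eIF1 on the small subunit, read 1219, 1062 and 1186 on the control arrays, 279, 244 and 238 on the dried arrays and 268, 279 and 266 on the commercial arrays. All control arrays lay far above all others, a log2 change of -2.19 (SE 0.09, adjusted p = 3.02e-07) in dried BY4743, while dried and commercial arrays overlapped (0.10, SE 0.09, adjusted p = 0.374). TIF5, for eIF5, which triggers GTP hydrolysis by eIF2, had the same layout, at 454 ± 80.4 (SD, n = 3) in the control, 153 ± 9.14 in dried BY4743 and 143 ± 12.5 in commercial yeast. FUN12, for eIF5B, differed from it and read 2817, 3043 and 2689.7 on the control arrays, 930.1, 971 and 987 on the dried arrays and 1884, 1839 and 1975 on the commercial arrays. Its 3 groups did not overlap, and it stood 1.97-fold higher in commercial yeast than in dried BY4743 (log2 0.98, SE 0.08, adjusted p = 1.64e-05), but at -0.36 on the log2 scale with spike-in scaling.

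All 3 subunits of eIF2 fell in dried BY4743, where 33% of all probe sets were lower. SUI2, the alpha subunit that Gcn2 phosphorylates, changed by -2.07 (SE 0.13, adjusted p = 3.18e-06), SUI3, the beta subunit, by -1.65 (SE 0.10, adjusted p = 2.04e-06), and GCD11, the gamma subunit that binds GTP, by -1.73 (SE 0.19, adjusted p = 8.61e-05). Between the dry groups SUI3 and GCD11 passed the threshold and SUI2 did not. SUI2 read 942, 918 and 829.7 on the control arrays, 213, 224 and 203 on the dried arrays and 262, 233 and 184 on the commercial arrays, so its dried and commercial arrays overlapped. GCD11 read 3833, 2803 and 2323 on the control arrays, 932, 749 and 986 on the dried arrays and 2233, 2399.6 and 2683 on the commercial arrays. Its commercial arrays lay above all dried arrays (1.46, SE 0.19, adjusted p = 0.000286) and overlapped the control arrays, with no call (-0.27, SE 0.19, adjusted p = 0.251). SUI3 lay between the other groups at 798 ± 57.5 (0.88, SE 0.10, adjusted p = 0.000112 against dried BY4743). With spike-in scaling the changes from dried to commercial yeast were -1.23 for SUI2, -0.53 for SUI3 and 0.16 for GCD11.

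Of the 5 genes of eIF2B, which reloads eIF2 with GTP, 4 fell on drying, where 33% of all probe sets were lower. In commercial yeast against dried BY4743 2 were higher and 1 lower, so 60% differed, near the 66.5% of all probe sets. GCN3, the alpha subunit and the only one that yeast can live without, read 509, 509.8 and 501 on the control arrays, 81.9, 65.9 and 72.2 on the dried arrays and 85.4, 120.4 and 107 on the commercial arrays. It had the largest fall of the 5 on drying (-2.79, SE 0.14, adjusted p = 6.94e-07), and no groups overlapped. GCD1, the gamma subunit, read 899.6, 891 and 949 on the control arrays, 355, 348 and 345 on the dried arrays and 965, 1088 and 1085 on the commercial arrays. It thus fell 2.61-fold on drying, and in commercial yeast it stood 2.99-fold above dried BY4743 (1.58, SE 0.08, adjusted p = 1.52e-06), a log2 change of 0.15 with spike-in scaling, which did not pass. GCD6, the catalytic epsilon subunit, read 489, 519 and 517 on the control arrays, 352, 340.3 and 340.3 on the dried arrays and 213, 187 and 197 on the commercial arrays. It was lowest in commercial yeast (-0.79, SE 0.08, adjusted p = 4.65e-05 against dried BY4743). GCD7, the beta subunit, fell by 2.58-fold on drying with no call between the dry groups. GCD2, the delta subunit, changed by -0.32 (SE 0.15, adjusted p = 0.0869) in dried BY4743, which did not pass, and its control and dried arrays overlapped.

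The 6 subunits of eIF3, the scaffold that joins the messenger to the small subunit, all fell in dried BY4743, with a median of -2.65. Of all probe sets 33% were lower there. PRT1, the b subunit, read 1874, 1634 and 1871 on the control arrays, 156, 143 and 149.7 on the dried arrays and 603, 681 and 701 on the commercial arrays. RPG1, the a subunit, read 1733, 1631 and 1613 on the control arrays, 188, 186 and 181 on the dried arrays and 600.2, 809 and 848 on the commercial arrays. In each the 3 groups stood apart, with commercial yeast between dried and control BY4743. PRT1 changed by -3.58 (SE 0.09, adjusted p = 4.11e-08) in dried BY4743, 2.14 (SE 0.09, adjusted p = 1.03e-06) in commercial against dried yeast and -1.44 (SE 0.09, adjusted p = 3.79e-06) in commercial yeast against the control. For RPG1 these changes were -3.17, 2.01 and -1.16, for NIP1, the c subunit, -2.78, 1.82 and -0.97, and for TIF34, the i subunit, -2.51, 1.47 and -1.03, all past the threshold. HCR1, the loosely bound j subunit, which also helps ribosomes to recycle, rose between the dry groups too (0.61, SE 0.07, adjusted p = 0.000122). TIF35, the g subunit that binds TIF34, gave no call between the dry groups. It read 3605, 2817 and 3028 on the control arrays, 787, 804 and 813 on the dried arrays and 642, 830.5 and 908 on the commercial arrays, and its dried and commercial arrays overlapped (-0.03, SE 0.15, adjusted p = 0.873). With spike-in scaling the change from dried to commercial yeast was 0.78 for PRT1, 0.63 for RPG1, 0.57 for NIP1, 0.05 for TIF34, -1.41 for TIF35 and -0.80 for HCR1, so HCR1 changed sign and the first 4 kept theirs without passing the threshold.

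The cap-binding and messenger-binding group fell in dried BY4743 in all 8 probe sets, where 33% of all probe sets were lower. Of the 8, 4 were lower still in commercial yeast, against 33.5% of all probe sets, and 2 were higher, against 33.1%. TIF4631, the main eIF4G scaffold, read 709, 775 and 796 on the control arrays, 155, 184 and 159.6 on the dried arrays and 86.7, 78.9 and 85.9 on the commercial arrays. TIF4632, the other eIF4G gene, read 277, 225 and 238 on the control arrays, 76.9, 90 and 98.1 on the dried arrays and 26, 26.9 and 36.4 on the commercial arrays, and 2 of its commercial arrays lay at or under background. In both genes the 3 groups did not overlap, with commercial yeast lowest. TIF4631 changed by -2.19 (SE 0.10, adjusted p = 3.58e-07) on drying and by -3.18 (SE 0.10, adjusted p = 7.8e-08) in commercial yeast against the control, and TIF4632 by -1.48 (SE 0.16, adjusted p = 6.96e-05) and -3.06 (SE 0.16, adjusted p = 1.14e-06). The log2 ratio of TIF4631 to TIF4632 was 1.63 in control BY4743, 0.92 in dried BY4743 and 1.51 in commercial yeast (exact two-sided permutation p = 0.1 for dried against control, the smallest that 3 against 3 arrays can give, and p = 0.5 for commercial yeast against control). TIF3, for eIF4B, which helps the helicase eIF4A, read 2083, 1971 and 2027 on the control arrays, 376, 361 and 319 on the dried arrays and 305, 260.5 and 203 on the commercial arrays, a change of -3.0 (SE 0.15, adjusted p = 8.16e-07) in commercial yeast against the control. Its further fall from dried to commercial yeast (-0.48, SE 0.15, adjusted p = 0.0217) was lost without dried replicate 1 or 2 and with only the 2 groups in the fit.

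CDC33, for the cap-binding protein eIF4E, and CAF20, which competes with eIF4G for it, shared another layout. CDC33 read 2139, 1569 and 1734 on the control arrays, 425, 611 and 581 on the dried arrays and 1153, 1084 and 978 on the commercial arrays. CAF20 read 2211, 2492 and 2209 on the control arrays, 996, 996 and 1011 on the dried arrays and 1444, 1416 and 1613 on the commercial arrays. In each, commercial arrays lay between dried and control arrays with no overlap. CDC33 changed by -1.76 (SE 0.17, adjusted p = 3.59e-05) on drying and 1.01 (SE 0.17, adjusted p = 0.00111) between the dry groups, and CAF20 by -1.20 (SE 0.09, adjusted p = 5.4e-06) and 0.57 (SE 0.09, adjusted p = 0.000545), but with spike-in scaling the changes between the dry groups were -0.42 and -0.81.

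The RNA helicases and the poly(A)-binding protein fell by under 2-fold on drying. The shared probe set of TIF1 and TIF2, which encode the same protein eIF4A, read 2829, 4375 and 3803 on the control arrays, 2442, 2238 and 2360.1 on the dried arrays and 2713, 3076 and 2778 on the commercial arrays. It fell 1.54-fold on drying (-0.62, SE 0.16, adjusted p = 0.00751), with no overlap, and the commercial arrays overlapped the control arrays. PAB1, for the poly(A)-binding protein, fell 1.66-fold, to 1531 ± 56.5. DED1, for a helicase that opens messenger leaders, read 2243, 2109 and 2113 on the control arrays, 1075, 1199 and 1218 on the dried arrays and 837, 787 and 756 on the commercial arrays, and all 3 groups stood apart in that falling order. DBP1, for a close relative that can stand in for Ded1 and is not one of the 43, read 178, 164 and 184 on the control arrays, 2455, 2158 and 2438 on the dried arrays and 1619, 1935 and 1823 on the commercial arrays. It rose 13.4-fold on drying (3.74, SE 0.10, adjusted p = 4.18e-08) and stood 10.2-fold above the control in commercial yeast (3.35, SE 0.10, adjusted p = 7.44e-08).

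**Figure D2:**
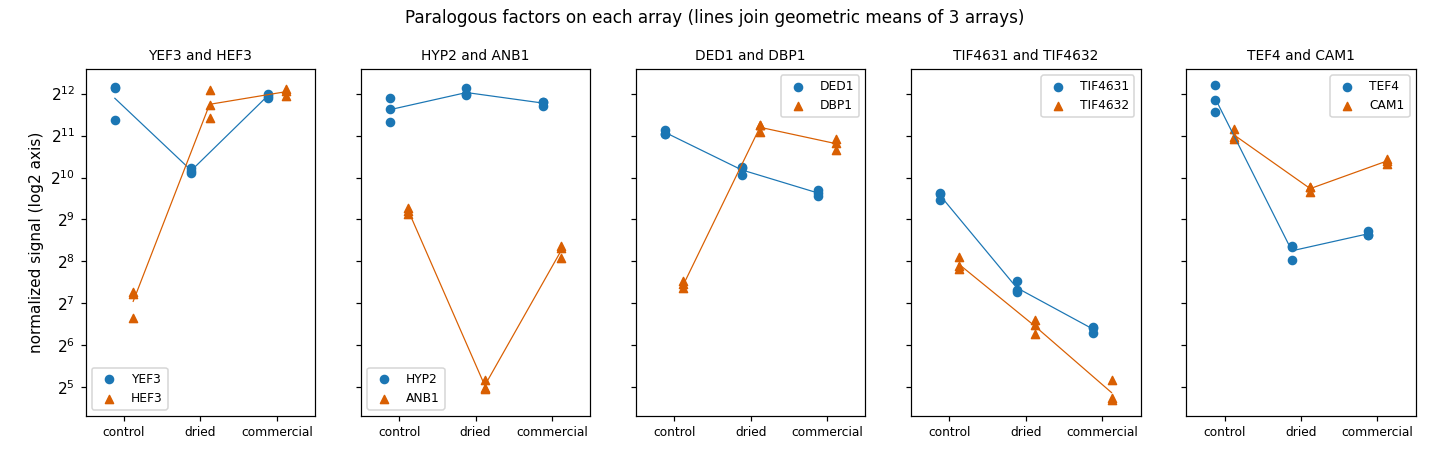
Normalized signal on a log2 axis for each array of 5 pairs of related factors in the 3 groups; circles are the first gene named, triangles the second, and lines join the geometric means of 3 arrays. HEF3 and DBP1 go up where YEF3 and DED1 go down on drying, while ANB1 falls and HYP2 stays high. Levels of different probe sets cannot be compared with each other.

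Among elongation factors eEF1A gave no call in any comparison. The shared probe set of TEF1 and TEF2, which encode the same eEF1A protein, read 3658, 5612 and 5368 on the control arrays, 5859.5, 5716 and 6039 on the dried arrays and 5886, 6039 and 6328 on the commercial arrays. Control replicate 1 was the lowest array, and all dried arrays lay above all control arrays without passing the threshold (0.29, SE 0.16, adjusted p = 0.132), and with spike-in scaling the change was -0.24. Quantile normalization gives every array the same top, here 7147, so that shared value says nothing about saturation. Whether signals this high still follow abundance was not tested. EFB1, for the alpha subunit of the exchange factor eEF1B, has a pair of probe sets that disagreed in commercial yeast. The brighter read 2374, 2399.6 and 2344 on the control arrays, 2229.8, 2170.4 and 2152 on the dried arrays and 4328, 3979 and 3735 on the commercial arrays, higher in commercial yeast than in dried BY4743 (0.88, SE 0.08, adjusted p = 2.85e-05) with no overlap, but at -0.17 with spike-in scaling. The other read 1731, 2837 and 2529 on the control arrays, 2434, 2293 and 1604 on the dried arrays and 2035, 1224 and 2442 on the commercial arrays, with overlap and no call (-0.19, SE 0.31, adjusted p = 0.61). In commercial yeast against the control the brighter was higher (0.76, SE 0.08, adjusted p = 4.53e-05), but at -0.78 with spike-in scaling. The other gave no call there (-0.34, SE 0.31, adjusted p = 0.339).

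The 2 genes for the gamma subunit of eEF1B, TEF4 and CAM1, both fell on drying. TEF4 read 4709.7, 3023 and 3689 on the control arrays, 328, 330.3 and 263 on the dried arrays and 425, 394 and 395 on the commercial arrays by its brighter probe set. It fell 12.3-fold on drying (-3.62, SE 0.17, adjusted p = 4.97e-07) and stood 9.25-fold under the control in commercial yeast. Its other probe set changed by -5.08 (SE 0.16, adjusted p = 8.53e-08), from 2901 ± 577 to 85.1 ± 7.61. CAM1 read 2009, 1937 and 2290.1 on the control arrays, 881, 803 and 875 on the dried arrays and 1352, 1398 and 1280.0 on the commercial arrays, a fall of 2.43-fold on drying (-1.28, SE 0.09, adjusted p = 5.24e-06). The log2 ratio of TEF4 to CAM1 went from 0.85 in control BY4743 to -1.48 in dried BY4743 and -1.73 in commercial yeast, with no overlap between the control and either dry group (exact permutation p = 0.1 for each).

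The genes of the translocase eEF2 and of YEF3, the main eEF3, fell on drying and were higher in commercial yeast than in dried BY4743, while HEF3, the second eEF3 gene, rose. The shared probe set of EFT1 and EFT2 read 4198, 4204 and 4167 on the control arrays, 1271, 1238 and 1172 on the dried arrays and 2972, 3228 and 3068 on the commercial arrays. Its groups did not overlap, with changes of -1.77 (SE 0.07, adjusted p = 2.35e-07) on drying and 1.33 (SE 0.07, adjusted p = 2.2e-06) between the dry groups, and commercial yeast remained under the control (-0.44, SE 0.07, adjusted p = 0.000659). YEF3 read 2644, 4513 and 4548 on the control arrays, 1108, 1204 and 1138 on the dried arrays and 4077, 3823 and 3931 on the commercial arrays. Dried arrays were lowest (-1.72, SE 0.20, adjusted p = 0.000105), and commercial arrays overlapped the control arrays, where replicate 1 was low (0.06, SE 0.20, adjusted p = 0.81). With spike-in scaling the changes between the dry groups were 0.14 for EFT1 and EFT2 and 0.70 for YEF3.

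HEF3, a gene little used in growing cells and also known as a zinc-regulated gene, read 100.2, 149 and 156 on the control arrays, 3399, 4336 and 2729 on the dried arrays and 4447, 4291 and 3946 on the commercial arrays. All dry arrays lay far above all control arrays, a rise of 25.8-fold in dried BY4743 (log2 4.69, SE 0.21, adjusted p = 4.59e-07) and 31.9-fold in commercial yeast (log2 4.99, SE 0.21, adjusted p = 4.17e-07), and the dry groups overlapped. No other of the 40 probe sets rose more than 2.07-fold in either comparison with the control. The log2 ratio of YEF3 to HEF3 was 4.84 in control BY4743, -1.58 in dried BY4743 and -0.10 in commercial yeast, with no overlap between any 2 groups (exact permutation p = 0.1 for each). Of 7 genes known from zinc deficiency, 3 were higher and 4 lower in dried BY4743 (median -0.70), against 36.2% and 33% of all probe sets. ZAP1, the zinc-responsive activator, rose from 102 ± 4.06 to 619 ± 23.6, and ZRT1, the high-affinity zinc transporter, fell from 1389.7 ± 43.2 to 406 ± 20.5.

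Of the 2 genes for eIF5A, the hypusine-bearing factor that eases slow peptide bonds, ANB1 fell to background on drying and HYP2 stayed high. HYP2, the form made in air, read 2578, 3774 and 3174 on the control arrays, 4463, 3985 and 4055 on the dried arrays and 3577, 3577 and 3343 on the commercial arrays. Its rise on drying (0.41, SE 0.14, adjusted p = 0.0287) was lost in 9 of 19 alternative settings, among them those without control replicate 1 or 3 and without dried replicate 1 or 3, and with spike-in scaling it was -0.18. ANB1, the form made when oxygen or heme is short, read 564, 618 and 593 on the control arrays, 31.4, 31.9 and 36.1 on the dried arrays and 322, 331 and 271 on the commercial arrays. It lay at background on all dried arrays, so it fell at least 11.7-fold on drying (adjusted p = 3.56e-08 for the fitted change) and stood at least 6.05-fold higher in commercial yeast (adjusted p = 3e-07). Commercial yeast remained 1.93-fold under the control (-0.95, SE 0.10, adjusted p = 7.51e-05). The log2 ratio of HYP2 to ANB1, with ANB1 at background in dried BY4743, was 2.41 in control BY4743, 6.98 in dried BY4743 and 3.51 in commercial yeast, with no overlap between groups (exact permutation p = 0.1 for each). ANB1 kept its rise between the dry groups with spike-in scaling, at 2.17, the only member called higher there.

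ANB1 is a target of the heme-dependent repressor Rox1, and 10 genes of the hypoxic group, ROX1 among them, were read beside it. On drying 7 were lower and 2 higher (median -1.16), against 33% and 36.2% of all probe sets. Between the dry groups 6 were higher and 2 lower, against 33.1% and 33.5%. HEM13, a heme synthesis oxidase, went from 563 ± 61.7 to background, at least 11.1-fold lower, and read 50.7 ± 3.54 in commercial yeast. AAC3, the hypoxic ADP/ATP carrier, fell at least 3.15-fold to background and stood at 118 ± 8.11 in commercial yeast. ROX1 itself rose from 137 ± 9.35 to 548 ± 27.4 on drying (2.0, SE 0.10, adjusted p = 6.58e-07) and read 367 ± 34.6 in commercial yeast. The enzymes that turn a lysine of eIF5A into hypusine fell far on drying: DYS1, deoxyhypusine synthase, 13.7-fold (-3.78, SE 0.07, adjusted p = 1.76e-08), and LIA1, deoxyhypusine hydroxylase, 11-fold (-3.46, SE 0.10, adjusted p = 5.4e-08). Relative to the other transcripts, in commercial yeast LIA1 was 4.43-fold above dried BY4743 and DYS1 1.36-fold, while against the control they remained 2.49-fold and 10.1-fold lower.

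Both release factors fell on drying, where 33% of all probe sets were lower, and lay between the BY4743 groups in commercial yeast. SUP45, for eRF1, which reads stop codons, read 2135, 2133 and 1882 on the control arrays, 459, 524 and 502 on the dried arrays and 1108, 1036 and 1075 on the commercial arrays. SUP35, for the GTPase eRF3, which can form the prion PSI, read 1053, 931 and 870.2 on the control arrays, 391, 397 and 446 on the dried arrays and 682, 711 and 659 on the commercial arrays. No 2 groups overlapped for either gene. SUP45 changed by -2.05 (SE 0.09, adjusted p = 3.28e-07) on drying and 1.12 (SE 0.09, adjusted p = 1.63e-05) between the dry groups, and SUP35 by -1.21 (SE 0.10, adjusted p = 1.14e-05) and 0.74 (SE 0.10, adjusted p = 0.00028), but with spike-in scaling the changes between the dry groups were -0.31 and -0.67. RLI1, which splits ribosomes after termination and is not one of the 43, fell 7.74-fold on drying (-2.95, SE 0.11, adjusted p = 1.43e-07) and stood 3.65-fold above dried BY4743 in commercial yeast.

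In the Gcn2 pathway the kinase and its activators went opposite ways on drying. GCN2, for the kinase that phosphorylates eIF2 when uncharged tRNA builds up, read 154, 169 and 158 on the control arrays, 319, 328 and 347 on the dried arrays and 198, 221 and 155 on the commercial arrays. Dried arrays lay above all others: the rise was 1.05 (SE 0.13, adjusted p = 0.000167) on drying and was lost with spike-in scaling (0.85), and commercial yeast was lower than dried BY4743 (-0.81, SE 0.13, adjusted p = 0.000869). GCN20, for an ATPase that works with Gcn1, read 1524, 1275 and 1299 on the control arrays, 231, 215 and 258 on the dried arrays and 342, 426 and 459 on the commercial arrays. It fell 5.81-fold on drying (-2.54, SE 0.14, adjusted p = 1.12e-06) and was 3.36-fold under the control in commercial yeast. GCN1, for the ribosome-bound protein that passes the signal to Gcn2, read 2289, 2421 and 2083 on the control arrays, 256, 189.7 and 233 on the dried arrays and 1031, 739.8 and 946 on the commercial arrays by its brightest probe set, which shares probes with other sequences by its suffix. It fell 10.1-fold on drying (-3.33, SE 0.16, adjusted p = 5.57e-07), and commercial yeast lay between the BY4743 groups (2.0, SE 0.16, adjusted p = 1.7e-05 against dried BY4743, and 0.58 with spike-in scaling, which did not pass).

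The annotation gave GCN1 9 probe sets, and all 9 fell on drying. The single one without a shared-probe suffix read 1345, 1416 and 1239 on the control arrays, 199, 161 and 163 on the dried arrays and 282, 299.7 and 304 on the commercial arrays, with changes of -2.94 (SE 0.11, adjusted p = 1.44e-07) on drying and 0.77 (SE 0.11, adjusted p = 0.000351) between the dry groups. The rise between the dry groups was 2.0 by the brightest probe set. On all dried arrays 5 of the 9 lay at background, so their fitted falls are not measured sizes. The pathway's output, GCN4, the activator of amino acid synthesis genes, is controlled mainly by translation of its messenger. Its transcript read 5382, 4976 and 4879.5 on the control arrays, 3110.1, 3481 and 3973 on the dried arrays and 3789, 4447 and 4314 on the commercial arrays, a small fall on drying (-0.53, SE 0.11, adjusted p = 0.00326).

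**Figure D3:**
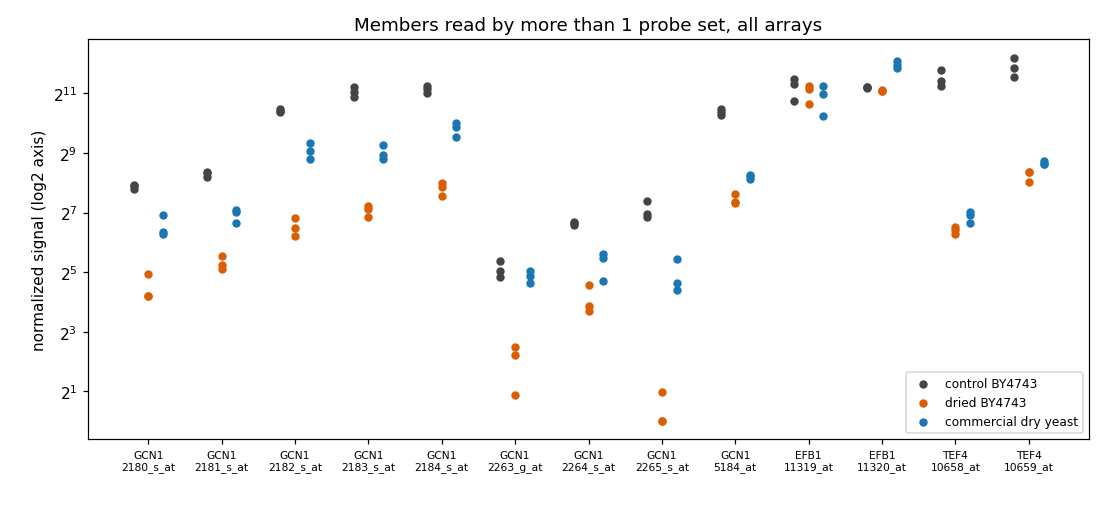
Normalized signal on a log2 axis for every array and every probe set of GCN1, EFB1 and TEF4, with the probe set name under each column. The dried arrays are lowest in all 9 columns of GCN1, and the EFB1 columns differ in whether commercial arrays stand above the others.

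Related gene lists gave a frame for the 43, and of all tested probe sets 33% were lower and 36.2% higher on drying. Of 19 other cytosolic translation and ribosome rescue factors, 13 were lower and 3 higher on drying (median -1.19), and the 3 were DBP1, EAP1, a second eIF4E-binding protein (0.29), and SKI7, which calls the exosome to stalled messengers (0.71). STM1, a protein that clamps idle ribosomes, fell from 5645 ± 545 to 1113 ± 47.7. Of 6 probe sets of chaperones bound to the ribosome 5 were lower and none higher on drying (median -2.32), among them ZUO1, a J protein at the tunnel exit (-3.26, SE 0.17, adjusted p = 1.08e-06). The 8 enzymes that modify translation factors gave 5 lower and 0 higher, so 62.5% differed, against 69.2% of all probe sets. Of 7 mitochondrial translation factors 4 were lower and 1 was higher (median -0.76), so 71.4% differed, near the 69.2% of all probe sets. Among them were RRF1, the recycling factor, at -1.39, MEF1, the elongation factor G, at -1.12 and AIM23, an initiation factor, at 1.08. Of 18 cytosolic aminoacyl-tRNA synthetase genes all 18 were lower (median -3.70). Cytosolic ribosomal proteins, on 108 probe sets, gave 96 lower and 2 higher (median -2.57). In commercial yeast against dried BY4743 the medians were 1.38 for the synthetases and 1.64 for ribosomal proteins, beside 0.54 for the factors. Differences between these lists were not tested.

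**Figure D4:**
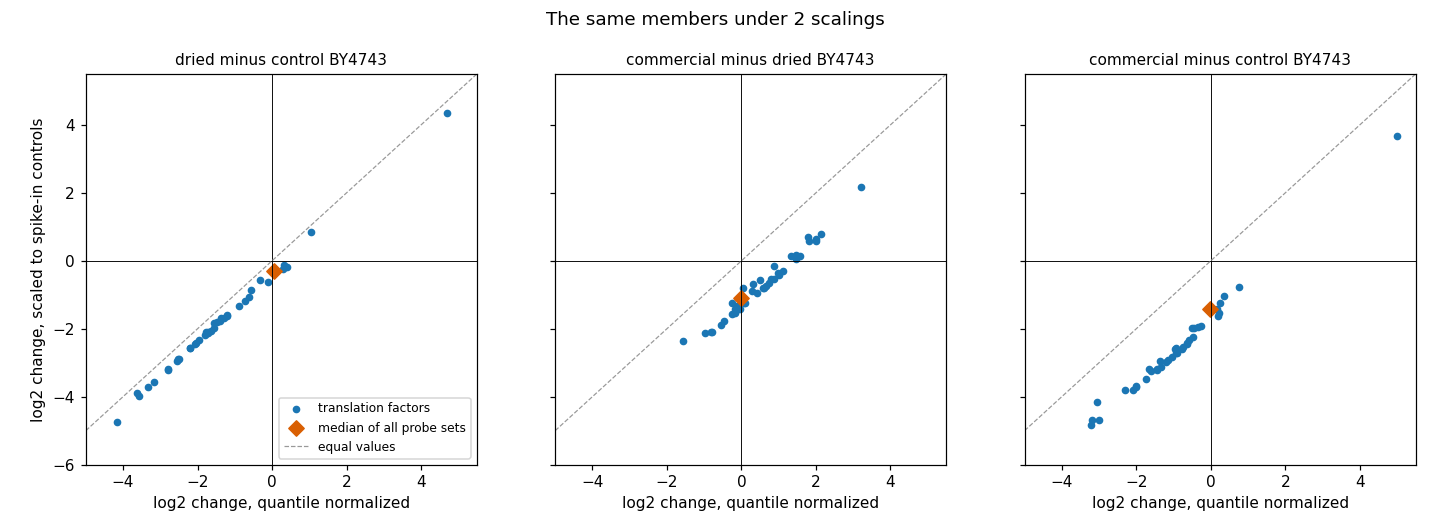
For each of the 40 probe sets, the log2 change after quantile normalization (x axis) against that after scaling to spike-in controls (y axis), in 3 comparisons; the diamond is the median of all tested probe sets and the dashed line marks equal values. In both comparisons with commercial yeast the points lie below the dashed line along with the diamond, so most changes above 0 on the x axis between the dry groups fall below 0 on the y axis.

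The labels were checked on the strain's marker genes. URA3 lay at background on all BY4743 arrays and read 365 ± 36.3 in commercial yeast. LEU2 lay at background on all dried BY4743 arrays and read 382 ± 54.3 in commercial yeast. In control BY4743 it read 84.5 ± 11.4, above background and against the genotype. Of 10 haploid markers, 5, 5 and 1 lay at background on all arrays of control, dried and commercial yeast, and their summed signal was 783 to 852, 802 to 927 and 948 to 1044. For 10 markers of meiosis and sporulation, of which 6, 4 and 3 lay at background, the sum was 467 to 487 in the control, 1439.8 to 1591 in dried BY4743 and 3987 to 5264 in commercial yeast, and its part in the factor results was not tested. Pearson's r across probe sets, which are not independent, was 0.971 to 0.981 between arrays of a group and 0.764 to 0.835 between groups.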

How the data were processed

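Per the labels, total RNA was hybridised to Affymetrix Yeast S98 arrays, and the maker's software read the images. A signed rank test and then a linear mixed model are named for the signals, without versions. Each deposited value is an intensity on a linear scale for 1 probe set. The trimmed mean of each array lay between 500.2 and 500.3 (2% trimmed at each end), as a global scaling gives.

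Values under 1 were raised to 1, log2 was taken and arrays were quantile normalized. Signals in the text are normalized values on the linear scale, with SD over 3 arrays. The 60 control probe sets were left out and 9275 tested in 1 fit of 9 arrays with limma 3.58.1 (R 4.3.3; lmFit and eBayes, two-sided, 6 residual and 1.64 prior degrees of freedom), adjusted by Benjamini-Hochberg in each comparison with a threshold of 0.05. Background is, per array, the 95th percentile of 28 control probe sets with absent targets (32.2 to 59.5 in normalized signal). Where a group lay at or under it on all arrays, a fold is a bound, written "at least": it sets the mean of the brighter group against the higher of background and signal in the dimmer one. Ratios of related genes were compared with exact permutation tests over arrays. The fit was also run on simulated data with few changed probe sets and no normalization step, which cannot test the scaling used here. The number of arrays limits precision.

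Of the tested probe sets 6504 named 1 gene, 328 several and 2443 none in the platform annotation. Gene names follow it, and 3 names in the further lists had no match. Values on every array were given for the member of largest called change per role and comparison, both genes of a pair and members that moved against their role, and for a few more. Further lists have counts, medians and up to 3 genes of largest called change; EAP1, SKI7, STM1, ROX1, GCN4, RBG1 and GIR2 fall outside that rule and were chosen after their values were seen, as were the lists of ribosomal proteins and synthetases. The members, lists and alternatives were chosen with earlier results of these data known. No probe or gene sequence was used here. Replicate numbers in the titles did not pair the arrays: same-numbered arrays of different groups had deviations from their group means correlated at -0.04 to 0.04. Alternatives were other scalings, an offset of 50, a floor at background, leaving out the dimmest 25% of probe sets or shared probes, the mean of a gene's probe sets, only 2 groups in the fit, the replicate number as a block, and leaving out each array.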

Additional observations from a re-analysis of the deposited data

How the results depend on the processing

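Of 36, 27 and 32 members called in dried against control BY4743, commercial yeast against dried BY4743 and commercial yeast against control BY4743, 34, 6 and 30 kept direction and call under every alternative, and 35, 25 and 30 did so when spike-in scaling was left aside. Spike-in scaling moved the medians of the members to -2.07, -0.77 and -2.66, beside -0.29, -1.10 and -1.43 for all probe sets. With it 1 member was higher in each comparison and 19 were lower between the dry groups, again without a share of all probe sets. Centring arrays on their median gave -1.84 in dried against control BY4743 and -1.16 in commercial yeast against control BY4743. In the last comparison 4 members were higher with the values as deposited and 1 with the mean of a gene's probe sets, in place of 2. Among changes that passed the threshold before or after, signs turned under spike-in scaling, whose median over all probe sets is below 0 in each comparison: HYP2 at -0.18 in dried against control BY4743; TIF11 at -1.23, FUN12 at -0.36, SUI2 at -1.23, SUI3 at -0.53, GCN3 at -0.57, HCR1 at -0.80, CDC33 at -0.42, CAF20 at -0.81, TIF1/TIF2 at -0.88, EFB1 at -0.17, TEF4 at -0.95, CAM1 at -0.73, SUP35 at -0.67, SUP45 at -0.31 and GCN20 at -0.54 in commercial yeast against dried BY4743; SUI1 at -1.55, GCD1 at -1.61, TEF1/TEF2 at -1.03, EFB1 at -0.78, YEF3 at -1.41, HYP2 at -1.41 and GCN2 at -1.25 in commercial yeast against control BY4743. With changes that passed in neither included, members above 0 went from 5 to 2, from 27 to 10 and from 8 to 1 under that scaling. Among these SUI1 (-0.14) and TEF1/TEF2 (-0.24) turned in dried against control BY4743, and HEF3 (-0.67) and TEF1/TEF2 (-0.80) between the dry groups. Other settings turned a few such changes too: median centring those of SUI1 and GCD1 in commercial yeast against control BY4743, and of TEF1/TEF2 on drying; median centring and the values as deposited that of HYP2 between the dry groups; and leaving out commercial replicate 1 those of TIF35 and SUI2 between the dry groups, and control replicate 1 that of YEF3 in commercial yeast against control BY4743.

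Leaving out each array in turn gave 35 to 37, 26 to 29 and 31 to 34 members called, with medians of -1.68 to -1.60, 0.49 to 0.59 and -0.97 to -0.89. With the replicate number as a block, 35, 27 and 32 members were called, with the same medians; HYP2 on drying was the call lost. GCD2 in commercial yeast against control BY4743 was lost without commercial replicate 2 or 3 and with the values as deposited. Of 12 comparisons of pair ratios 10 had no overlap between groups, and 10 to 11 when 1 array was left out. Of all probe sets, read singly, 72.8% to 75.5% had no overlap, and ratios of other genes were not computed. The 12 share pairs and arrays and are not independent of each other. ANB1 on the dried arrays and TIF4632 on 2 commercial arrays lay at or under background, which limits their sizes.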

Other observations

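A pair of ribosome-associated GTPases and their partners, looked at after their values were seen, showed unequal levels in the 3 groups. RBG2 read 481, 466 and 468 on the control arrays, 113, 130.4 and 122 on the dried arrays and 623, 679.5 and 654 on the commercial arrays, and TMA46, which binds the related RBG1, read 251, 252 and 239.9 on the control arrays, 42.2, 73.8 and 76.2 on the dried arrays and 403, 346 and 336 on the commercial arrays. Dried arrays were lowest for both. RBG2 fell 3.88-fold on drying (-1.96, SE 0.08, adjusted p = 2.69e-07) and was 5.37-fold higher in commercial yeast than in dried BY4743, 1.38-fold above the control (0.47, SE 0.08, adjusted p = 0.000993). TMA46 changed by -2.0 (SE 0.22, adjusted p = 7.11e-05) and 2.54 (SE 0.22, adjusted p = 2.57e-05), and its level in commercial yeast against the control did not pass (0.54, SE 0.22, adjusted p = 0.0535). Its signal of 42.2 on dried replicate 1 lay under that array's background of 46.7, which limits the sizes of the first 2 changes. RBG1 read 1469, 1741 and 1278 on the control arrays, 534, 489 and 542 on the dried arrays and 696, 639 and 742 on the commercial arrays, and GIR2, the partner of Rbg2, read 406, 465 and 426 on the control arrays, 269.8, 289.8 and 276 on the dried arrays and 299, 353 and 338 on the commercial arrays, with changes on drying of -1.51 and -0.63.

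TMA64, for the initiation factor eIF2D, and MRF1, for the mitochondrial release factor, were lowest in commercial yeast. TMA64 read 333, 313 and 339.8 on the control arrays, 262, 235 and 279.9 on the dried arrays and 74, 111 and 82.5 on the commercial arrays, a change of -1.56 (SE 0.15, adjusted p = 5.33e-05) between the dry groups. MRF1 read 182, 168 and 227 on the control arrays, 121, 101 and 111 on the dried arrays and 29.1, 40 and 39.2 on the commercial arrays, a change of -1.63 (SE 0.16, adjusted p = 5.84e-05). Its signal on commercial replicate 1 lay under that array's background of 44.2, which limits this size.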
